A study of Mus musculus with 12 samples.

Results

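The genes described are 9 genes of the red cell lineage, taken from the deposited table by their symbols. They are the transcription regulators Gata1, Zfpm1, Klf1 and Nfe2, the erythropoietin receptor gene Epor, the red cell membrane genes Rhag, Slc4a1 and Ermap, and Alas2 of heme synthesis. All 9 were found, among 40481 genes in all. Their RNA was measured in 12 libraries of cultured mouse hematopoietic stem cells (HSCs), in 4 groups of 3. Adult bone marrow (8 weeks) and fetal liver (E14.5) each gave a wild-type (WT) group and a group with ETV6-RUNX1. This is the fusion of a pair of transcription factor genes that is found in childhood B-cell leukemia, and in these mice it is inducible (iE/R in the labels). All 4 groups, WT included, were kept for 3 days in a culture that expands HSCs, with doxycycline at 1 µg/mL. The sources used here do not give the promoter that drives the fusion, the sex of the mice, the number of mice behind a library or the library batches. No label says that replicates came from separate animals, so p-values measure the spread between these libraries, which may be technical.

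Red cells arise from stem cells through progenitors that are shared with the megakaryocyte lineage, which makes platelets. GATA1, a zinc finger factor, takes over from GATA2 during this step and acts with its cofactor FOG1, the product of Zfpm1. KLF1 acts later and drives globin and membrane genes, while NFE2, the p45 partner of the small MAF proteins, serves globin expression and platelet release. The receptor EPOR receives erythropoietin and signals through JAK2 and STAT5. RHAG and band 3 (Slc4a1) are channel and transport proteins of the red cell membrane, ERMAP is a membrane protein of erythroblasts that carries a blood group, and ALAS2 starts heme synthesis in red cell precursors.

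Library totals were 32316730 to 64483920 reads. Levels are in CPM (read counts scaled to a common library total), and 3 reads, the floor at or under which a level was not told from 0, equalled 0.0465 to 0.0928 CPM. Floors cover counting error only. The 14 HSC marker genes were all detected in all 4 groups, with summed levels of 1317 to 1713 CPM in WT fetal liver, 3881 to 4222 CPM in ETV6-RUNX1 fetal liver, 1756 to 2648 CPM in WT bone marrow and 2840 to 3295 CPM in ETV6-RUNX1 bone marrow. Of these 14 markers 12 rose and 0 fell in fetal liver, where 24.8% of all genes rose and 18.3% fell, and 8 rose and 1 fell in bone marrow, where 14.4% of all genes rose and 4.93% fell. Mitochondrial genes took 0.921 to 1.10% of reads in ETV6-RUNX1 fetal liver and 1.34 to 1.84% in the other groups, and the part of this in the results was not tested. Runx1 and Etv6, the genes joined in the fusion, were higher in the libraries labelled ETV6-RUNX1 of both sources, with means of 227 against 121 CPM for Runx1 and 178 against 123 CPM for Etv6 in fetal liver. Reads from the fusion transcript cannot be told from those of the normal genes in this table. Genes were tested with limma on log2(CPM + 1), and a gene is said to have risen or fallen where its Benjamini-Hochberg adjusted p was under 0.05 over the 14271 genes that reached 1 CPM in 3 or more libraries. By that rule 6 of the 9 genes were tested, and Slc4a1, Ermap and Alas2 were not. Klf1 passed the rule only through 4 bone marrow libraries, Rhag reached 1 CPM in all but the 3 ETV6-RUNX1 bone marrow libraries, and Gata1, Zfpm1, Epor and Nfe2 did so in all 12. Fold changes are on the log2(CPM + 1) scale, which understates changes of low genes.

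The promoter windows of Gata1, Epor, Rhag and Klf1 are shown because levels of the first 3 correlated positively over the 12 libraries, and those of Klf1 correlated negatively with them. Klf1 was scarce, and its genotype difference did not pass in fetal liver (limma adjusted p 0.113) or in bone marrow (limma adjusted p 0.949). It was tested only because of bone marrow libraries, where the other genes were lower, so its negative correlation gives no support to a link. The windows come from RefSeq on the build GRCm38.p6, read 5′ to 3′ on the gene's strand from 250 bases before to 50 bases after the annotated start. Capitals mark matches to the GATA motif, searched on both strands as AGATAA or AGATAG or TGATAA or TGATAG. The match in Epor, Rhag and Klf1 lies on the other strand and is printed as its reverse complement.
Gata1, chrX:7967861-7968160, minus strand: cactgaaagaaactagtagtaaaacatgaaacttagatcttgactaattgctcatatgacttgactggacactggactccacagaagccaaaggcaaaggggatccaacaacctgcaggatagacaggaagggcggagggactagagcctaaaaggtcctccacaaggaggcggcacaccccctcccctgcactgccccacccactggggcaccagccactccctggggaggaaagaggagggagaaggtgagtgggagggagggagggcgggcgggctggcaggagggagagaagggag
Epor, chr9:21963527-21963826, minus strand: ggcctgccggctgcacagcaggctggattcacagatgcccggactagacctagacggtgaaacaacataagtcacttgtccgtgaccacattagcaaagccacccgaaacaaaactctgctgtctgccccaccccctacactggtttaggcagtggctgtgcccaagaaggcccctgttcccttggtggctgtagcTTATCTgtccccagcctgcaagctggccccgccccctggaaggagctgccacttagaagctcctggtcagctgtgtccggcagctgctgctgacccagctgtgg
Rhag, chr17:40810899-40811198, plus strand: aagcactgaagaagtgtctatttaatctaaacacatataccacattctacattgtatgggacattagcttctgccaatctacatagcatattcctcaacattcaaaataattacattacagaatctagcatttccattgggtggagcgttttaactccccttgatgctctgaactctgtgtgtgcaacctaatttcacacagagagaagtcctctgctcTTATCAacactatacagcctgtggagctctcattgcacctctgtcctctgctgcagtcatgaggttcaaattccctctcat
Klf1, chr8:84901732-84902031, plus strand: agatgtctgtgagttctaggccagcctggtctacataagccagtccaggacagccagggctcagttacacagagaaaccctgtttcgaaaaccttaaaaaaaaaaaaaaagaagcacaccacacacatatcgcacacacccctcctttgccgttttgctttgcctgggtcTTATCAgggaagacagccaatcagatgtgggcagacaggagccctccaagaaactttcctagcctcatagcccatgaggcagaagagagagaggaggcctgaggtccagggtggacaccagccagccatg
A window was found for 7 of the 9 genes, all but Slc4a1 and Nfe2. The GATA motif was present once in the windows of Epor, Rhag, Klf1, Ermap and Alas2, which is 5 of 7, and had no match in those of Gata1 and Zfpm1. The Gata1 window lies inside the gene's annotated span (7959260 to 7978071), and the sequence at the 5′ end of that span was not searched. Of 32851 promoter windows of mouse genes, 29.76% held a match. The matches began 54 bases before the start in Epor, 31 in Rhag, 80 in Klf1, 67 in Ermap and 86 in Alas2. Windows with the motif belonged to genes that rose (Epor, Rhag), to Klf1, whose mean was lowest in the group where theirs were highest, and to genes close to 0 (Ermap, Alas2). The RUNX motif, TGTGGT or TGCGGT on either strand, was present once each in the windows of Epor, Rhag and Klf1 and had no match in the other 4, against 22.41% of all windows. The CACCC motif of the KLF type, CCNCNCCC on either strand, occurred 3 times in the Gata1 window and 4 times each in those of Epor, Zfpm1 and Alas2 (with overlapping matches in Epor and Alas2), and had no match in those of Rhag, Klf1 and Ermap; 49.47% of all windows held it. A match describes letters in a window and was not tested for binding.

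The first question was what ETV6-RUNX1 changes in this gene group in fetal liver HSCs. Gata1, Epor, Rhag and Nfe2 rose, and neither Zfpm1 nor Klf1 passed the test. Of the 6 genes tested with limma, 4 rose and 0 fell (1 was lower at an unadjusted p under 0.05, and edgeR and DESeq2 on recovered reads each called all 6, Zfpm1 and Klf1 lower). The background was 43.1% of all genes called, made up of 24.8% that rose and 18.3% that fell. Their median log2 fold change was 0.83, beside 0.08 for all genes tested, which was 0.01 under median-of-ratios scaling and -0.10 under quantile normalization. In bulk RNA, a change in the number of cells of a type and a change of RNA per cell cannot be told apart.

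Gata1 (ENSMUSG00000031162, chromosome X, 7959260 to 7978071 on GRCm38) had 102, 75.1 and 98.4 CPM in WT fetal liver replicates 1 to 3, and 223, 278 and 209.7 CPM in ETV6-RUNX1 fetal liver. All 3 fusion libraries were above all 3 WT libraries. The rise was 1.36 ± 0.31 (log2 fold change ± SE), limma adjusted p 0.00308. The means were 237 ± 36.3 against 91.7 ± 14.5067 CPM (SD, n = 3), a ratio of 2.58.

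Epor (ENSMUSG00000006235, chromosome 9, 21958897 to 21963506) had 23.9, 25.6 and 25.1 CPM in WT fetal liver and 45.7, 56.1 and 59.5 CPM in ETV6-RUNX1 fetal liver. The WT libraries were tight and all 3 fusion libraries were above them. The log2 fold change was 1.08 ± 0.16 (SE), limma adjusted p 0.000129.

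Rhag (ENSMUSG00000023926, chromosome 17, 40811126 to 40840754), which encodes the Rh-associated glycoprotein, had the largest ratio of the 6 tested genes. Its levels were 2.62, 2.04 and 3.46 CPM in WT fetal liver and 21.6, 21.1 and 15.8 CPM in ETV6-RUNX1 fetal liver. The groups were far apart, with means of 2.71 ± 0.713 and 19.5 ± 3.19 CPM (SD, n = 3), a ratio of 7.21. The log2 fold change was 2.47 ± 0.25 (SE), limma adjusted p 3.85e-06.

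Nfe2 (ENSMUSG00000058794, chromosome 15, 103248212 to 103258403) had the highest level per kilobase of exon of the 9 genes in every group. It had 265, 225 and 278 CPM in WT fetal liver and 396, 361 and 392 CPM in ETV6-RUNX1 fetal liver. The groups did not overlap, and the log2 fold change was 0.58 ± 0.12 (SE), limma adjusted p 0.00158, the smallest of the 4 rises.

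Zfpm1 (ENSMUSG00000049577, chromosome 8, 122282141 to 122337251) had 9.66, 4.18 and 8.05 CPM in WT fetal liver and 4.58, 4.45 and 3.51 CPM in ETV6-RUNX1 fetal liver. WT replicate 2 lay among the fusion libraries and the other 2 WT libraries lay above them. The log2 fold change of -0.62 ± 0.25 (SE) did not pass the test (limma adjusted p 0.0591). It passed without WT fetal liver replicate 2 (-0.93, limma adjusted p 0.00666) and on the recovered reads with edgeR (-0.90, adjusted p 0.0283) and DESeq2 (-0.88, adjusted p 0.0167).

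Klf1 (ENSMUSG00000054191, chromosome 8, 84901928 to 84905291) was scarce, with 0.497, 0.954 and 0.512 CPM in WT fetal liver (23, 57 and 33 reads) and 0.315, 0.180 and 0.030 CPM in ETV6-RUNX1 fetal liver (15, 10 and 1 reads). All 3 fusion libraries were below all 3 WT libraries, and 1 of them was under the floor. On the log2(CPM + 1) scale the difference was -0.49 ± 0.24 (SE) and did not pass (limma adjusted p 0.113). Without the added count the size is larger, and the tests on recovered reads called it lower, with log2 fold changes of -1.92 by edgeR (adjusted p 0.0359) and -1.93 by DESeq2 (adjusted p 0.0261). Without ETV6-RUNX1 bone marrow replicate 2, which enters only through the shared spread, the same difference of -0.49 passed (limma adjusted p 0.0413).

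**Figure D1:**
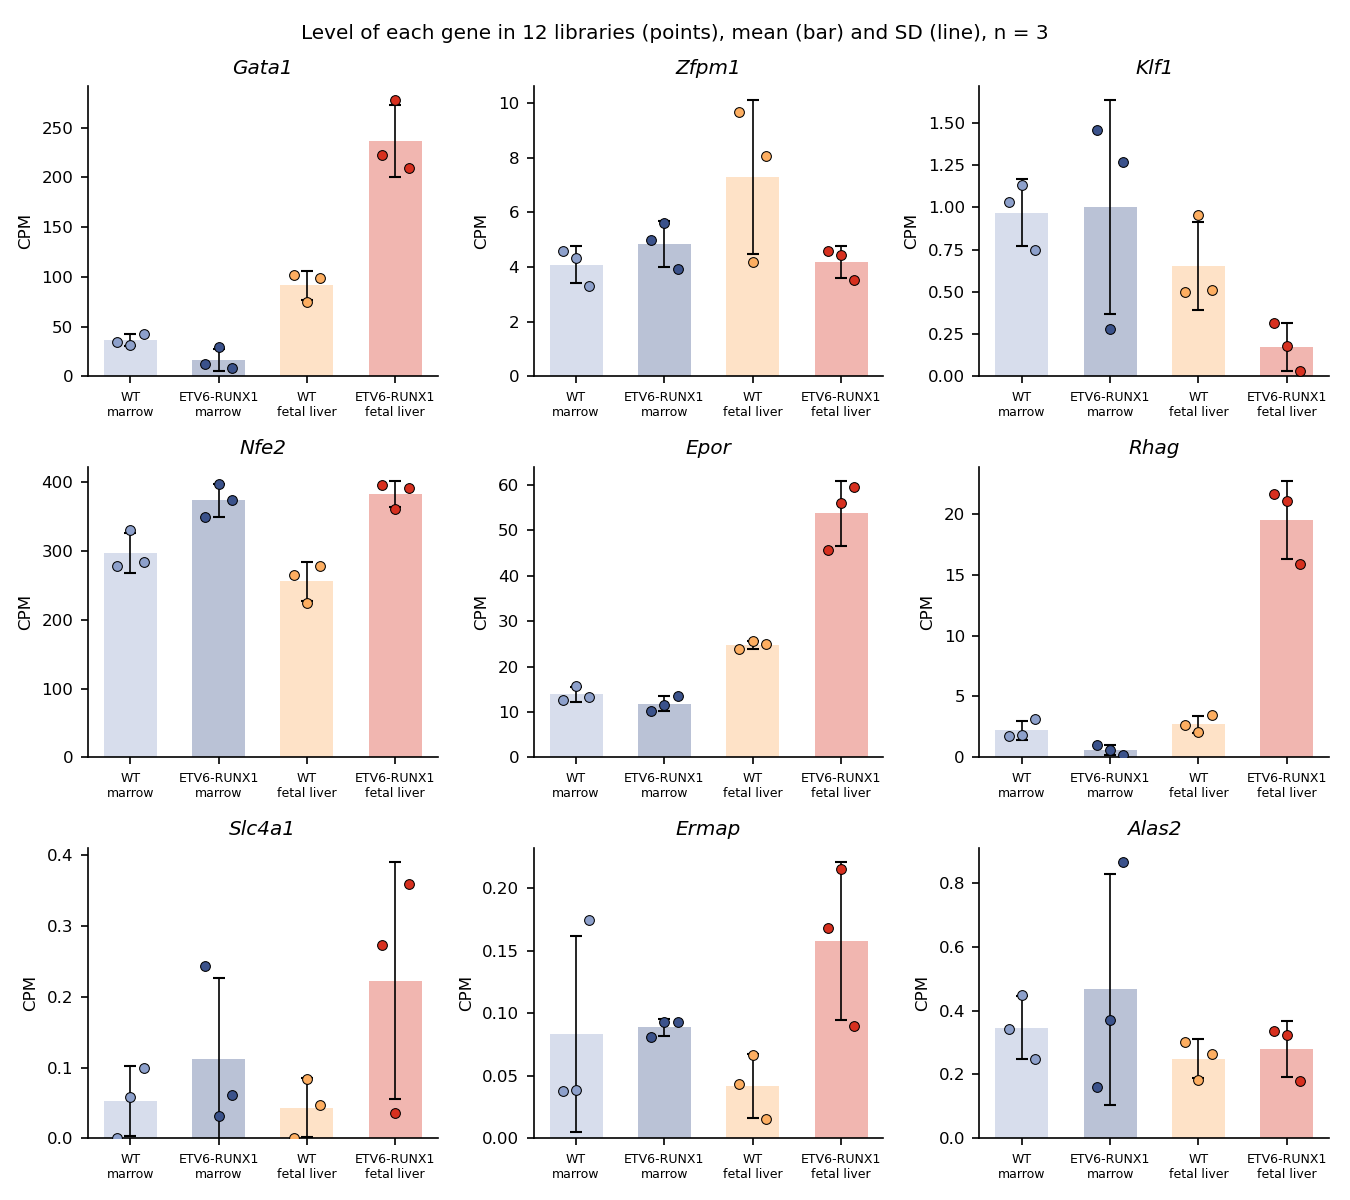
CPM (vertical axis, linear, from 0, a scale of its own for each gene) of the 9 genes in the 4 groups; points are the 3 libraries of a group, bars the mean and lines the SD. Gata1, Epor and Rhag are highest in the 3 ETV6-RUNX1 fetal liver libraries. The mean of Klf1 is lowest in that group, whose libraries overlap those of ETV6-RUNX1 bone marrow for Klf1. Slc4a1, Ermap and Alas2 stay under 1 CPM in all 12 libraries.

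The same comparison in adult bone marrow gave another picture. Gata1 and Rhag fell, 0 of the 6 genes rose by limma (1, Nfe2, was higher at an unadjusted p under 0.05, and edgeR and DESeq2 called 0 higher), and Epor, Nfe2, Zfpm1 and Klf1 did not pass the test. The background in bone marrow was 19.4% of all genes called, with 14.4% that rose and 4.93% that fell. The median log2 fold change of the 6 genes was -0.12, beside 0.13 over all genes tested, a value that was 0.01 under median-of-ratios scaling.

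Gata1 had 34.8, 31.0 and 43.0 CPM in WT bone marrow and 11.9, 29.1 and 8.39 CPM in ETV6-RUNX1 bone marrow. All 3 fusion libraries were below all 3 WT libraries, but fusion replicate 2 was close to the lowest WT library. The log2 fold change was -1.26 ± 0.31 (SE), limma adjusted p 0.0133. The call was kept in 18 of 21 alternatives. It was lost without ETV6-RUNX1 bone marrow replicate 1 (-1.13, limma adjusted p 0.0507), in a fit of only the bone marrow libraries, and with all genes with reads.

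Rhag had 1.71, 1.79 and 3.14 CPM in WT bone marrow (90, 92 and 126 reads) and 1.00, 0.618 and 0.155 CPM in ETV6-RUNX1 bone marrow (37, 20 and 5 reads). The groups did not overlap, with means of 2.21 ± 0.801 and 0.591 ± 0.423 CPM (SD, n = 3). The log2 fold change was -1.02 ± 0.25 (SE), limma adjusted p 0.0128, and the call was lost without WT bone marrow replicate 3 (-0.83, limma adjusted p 0.0540). With all 29278 genes with reads in the fit, neither fall passed (limma adjusted p 0.0610 for Gata1 and 0.0556 for Rhag).

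Epor had 12.7, 15.7 and 13.2 CPM in WT bone marrow and 10.3, 11.6 and 13.6 CPM in ETV6-RUNX1 bone marrow. The groups overlapped, and the 95% interval of the log2 difference ran from -0.56 to 0.13 (limma adjusted p 0.362). Nfe2 had 278, 331 and 284 CPM in WT and 349.8, 397 and 375 CPM in ETV6-RUNX1 bone marrow. All fusion libraries were above all WT libraries for Nfe2, yet the log2 difference of 0.33 ± 0.12 (SE) did not pass (limma adjusted p 0.0705). It passed in 1 of 21 alternatives, under quantile normalization (0.39, limma adjusted p 0.0355). Zfpm1 had 4.59, 4.32 and 3.31 CPM in WT and 4.998, 5.59 and 3.93 CPM in ETV6-RUNX1 bone marrow, with an interval of -0.34 to 0.74 (limma adjusted p 0.607). Klf1 had 1.03, 1.13 and 0.747 CPM in WT and 1.46, 0.278 and 1.27 CPM in ETV6-RUNX1 bone marrow. Fusion replicate 2, which held the most Gata1 of its group, held the least Klf1, and the interval of the Klf1 difference ran from -0.54 to 0.49 (limma adjusted p 0.949).

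Whether the fusion acted differently in the sources was tested as an interaction, the fetal liver effect minus the bone marrow effect. The effect was higher in fetal liver for Gata1, Epor and Rhag, which is 3 of the 6 genes tested, while 9.19% of all genes passed this test, 5.56% with a higher and 3.62% with a lower effect in fetal liver. The difference was 2.62 ± 0.44 (SE) on the log2 scale for Gata1 (limma adjusted p 0.00232), 1.29 ± 0.23 for Epor (limma adjusted p 0.00316) and 3.50 ± 0.36 for Rhag (limma adjusted p 5.29e-05). For Gata1 and Rhag the effects had opposite signs in the sources and passed in both, and for Epor the bone marrow effect was not told from 0. The bone marrow falls of Gata1 and Rhag each lost their call in some alternatives. The rise of Nfe2 was not shown to differ, with a difference of 0.25 and an interval of -0.12 to 0.62 (limma adjusted p 0.369). The interaction did not pass for Zfpm1 (-0.82, limma adjusted p 0.157) or Klf1 (-0.46, limma adjusted p 0.409). Without WT fetal liver replicate 2 that of Zfpm1 passed (-1.13, limma adjusted p 0.0476).

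**Figure D2:**
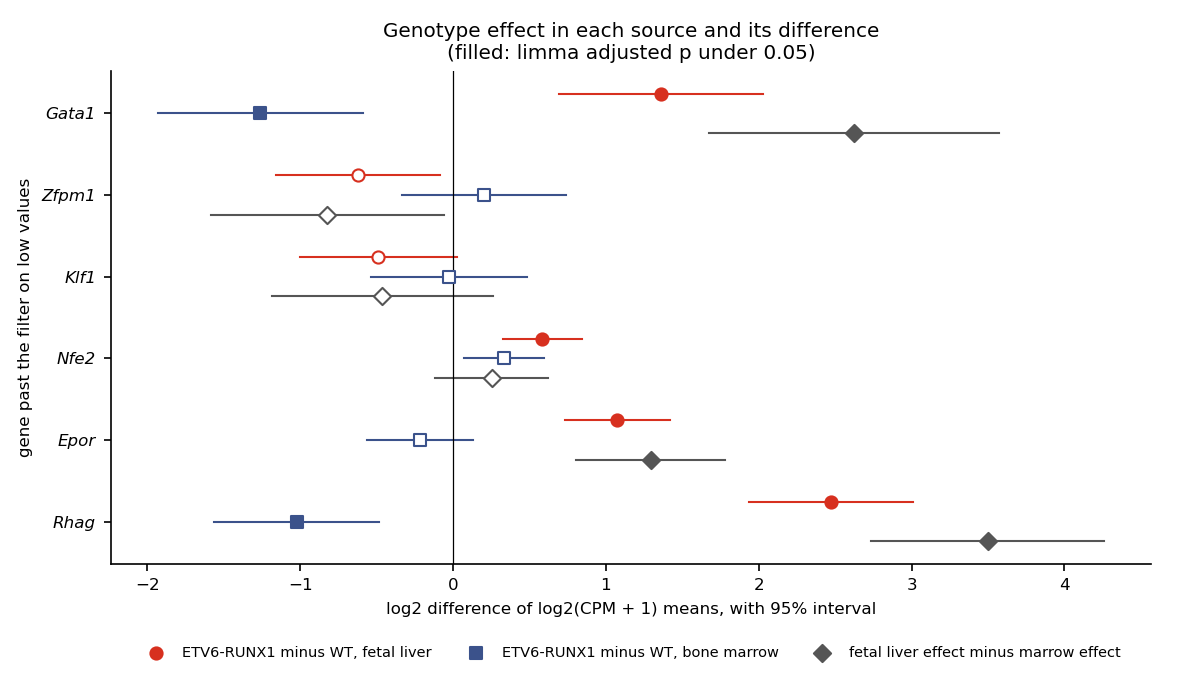
Log2 difference of the group means of log2(CPM + 1) (horizontal axis, lines are 95% intervals) for the 6 tested genes; circles are ETV6-RUNX1 minus WT in fetal liver, squares the same in bone marrow, diamonds the difference between these, and filled symbols have a limma adjusted p under 0.05. Gata1 (1.36 and -1.26) and Rhag (2.47 and -1.02) lie on opposite sides of 0 in the 2 sources.

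The sources also differed within a genotype. In WT, Gata1 and Epor were higher in fetal liver than in bone marrow, 2 of the 6 genes tested, against 11.1% of all genes (3.38% higher and 7.77% lower). Gata1 was 1.32 ± 0.31 higher (log2, SE; limma adjusted p 0.0131) and Epor 0.80 ± 0.16 higher (limma adjusted p 0.00472). The Gata1 call was lost without WT bone marrow replicate 2 (1.21, limma adjusted p 0.0649), WT fetal liver replicate 1 (1.24, limma adjusted p 0.0545) or WT fetal liver replicate 3 (1.26, limma adjusted p 0.0537). Rhag in WT differed by 0.21 with an interval of -0.32 to 0.75 (limma adjusted p 0.632). Zfpm1 was 0.65 ± 0.25 higher in WT fetal liver without passing (limma adjusted p 0.116), and it passed without WT fetal liver replicate 2 (0.96, limma adjusted p 0.0171) and with DESeq2 (0.93, adjusted p 0.0291).

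In ETV6-RUNX1 cells, 3 of the 6 genes were higher and 1 was lower in fetal liver, against 28.6% of all genes called (10.4% higher and 18.2% lower). Gata1 was 3.94 ± 0.31 higher (limma adjusted p 6.39e-07), Rhag 3.71 ± 0.25 (limma adjusted p 1.38e-07) and Epor 2.10 ± 0.16 (limma adjusted p 4.88e-07). On the linear scale the mean of Gata1 was 14.4 times, that of Rhag 33.0 times and that of Epor 4.55 times the bone marrow mean. Klf1 was lower in fetal liver by -0.72 ± 0.24 (limma adjusted p 0.0366), although the groups overlapped, and this call was kept in 11 of 20 alternatives. Klf1 entered the test only through bone marrow libraries, the source in which it was higher, so this call gives no support to a difference between sources. It was lost without any of ETV6-RUNX1 bone marrow replicates 1 or 3 or ETV6-RUNX1 fetal liver replicates 1, 2 or 3, with limma adjusted p from 0.0544 to 0.143. Both comparisons of sources share the libraries of the genotype comparisons, so they are not independent of them. Gata1 and Alas2 lie on the X chromosome, and Xist, the RNA of the inactive X, ranged from 0.175 to 1.27 CPM over 6 bone marrow and from 51.7 to 89.3 CPM over 6 fetal liver libraries, so that sex composition and source cannot be told apart. Within fetal liver, mean Xist was 67.1 ± 19.2 CPM in WT libraries and 63.4 ± 10.2 CPM in those with the fusion (SD, n = 3).

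Slc4a1, Ermap and Alas2 stayed under 1 CPM in all 12 libraries. Slc4a1 (ENSMUSG00000006574, chromosome 11, 102348824 to 102366203), the anion exchanger band 3, had 0, 0.0837 and 0.0465 CPM in WT fetal liver (0, 5 and 3 reads) and 0.273, 0.0359 and 0.360 CPM in ETV6-RUNX1 fetal liver (13, 2 and 12 reads). In bone marrow it had 0, 0.0584 and 0.0996 CPM in WT and 0.243, 0.0309 and 0.0619 CPM in ETV6-RUNX1. The groups overlapped in both sources, and 7 of the 12 values were at or under the floor. Ermap (ENSMUSG00000028644, chromosome 4, 119175457 to 119190011) had 2, 4 and 1 reads in WT fetal liver and 8, 12 and 3 reads in ETV6-RUNX1 fetal liver, with means of 0.0419 and 0.158 CPM. These groups did not overlap, but in a fit of all genes with reads the difference did not pass (limma adjusted p 0.0701). In bone marrow Ermap had 2 to 7 reads in WT and 3 reads in each ETV6-RUNX1 library.

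Alas2 (ENSMUSG00000025270, chromosome X, 150547375 to 150570638) had 6 to 28 reads per library, above the floor in all 12. It ranged from 0.184 to 0.303 CPM in WT and from 0.180 to 0.336 CPM in ETV6-RUNX1 fetal liver, and from 0.249 to 0.448 CPM in WT and from 0.162 to 0.866 CPM in ETV6-RUNX1 bone marrow. The groups overlapped in both sources, and a fit of all genes with reads gave limma adjusted p of 0.968 in fetal liver and 0.758 in bone marrow. Alas2 shares 311 exon bases with Apex2 on the opposite strand, and Apex2 reached 23.3 CPM. Whether the counting used strand is not given in the sources used here, so the low Alas2 values may include reads of Apex2.

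Divided by exon length, the 9 genes spanned a wide range. Nfe2 had 85.7 to 128 CPM per kilobase as group means, Gata1 6.76 to 97.1, Epor 5.94 to 27.0, Rhag 0.253 to 8.34 and Zfpm1 1.16 to 2.08 CPM per kilobase. Klf1 lay at 0.114 to 0.655, Alas2 at 0.104 to 0.194, and Slc4a1 and Ermap at or under 0.0456 CPM per kilobase in all groups. The order of the groups by mean level was the same for Gata1, Epor and Rhag: ETV6-RUNX1 fetal liver, WT fetal liver, WT bone marrow, ETV6-RUNX1 bone marrow. All neighbours in this order were free of overlap for Gata1, whereas the bone marrow groups overlapped for Epor and the WT groups overlapped for Rhag. Nfe2 followed another order, in which both ETV6-RUNX1 groups came first and overlapped each other (383 ± 19.1 and 374 ± 23.7 CPM), followed by WT bone marrow (297 ± 28.8 CPM) and WT fetal liver (256 ± 27.8 CPM; SD, n = 3), whose highest library had 278.1 CPM against a lowest of 278.2 CPM in WT bone marrow.

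Because GATA1 follows GATA2 and works with FOG1, Gata1 was also set against Gata2 and Zfpm1 within each library, per exon length. The ratio of Gata1 to Gata2 was 1.77, 1.87 and 1.97 in WT fetal liver and 5.86, 8.69 and 4.54 in ETV6-RUNX1 fetal liver. It was 0.626, 0.528 and 0.713 in WT bone marrow and 0.188, 0.396 and 0.139 in ETV6-RUNX1 bone marrow. Gata1 was thus the more abundant of the pair in all fetal liver libraries and the less abundant in all bone marrow libraries, and within each source the genotypes did not overlap. The mean log2 difference between genotypes was 1.72 in fetal liver and -1.50 in bone marrow, each with an exact two-sided permutation p of 0.1, the smallest that 3 against 3 libraries allow. Tests of 2 ratios in 2 sources were made, and adjustment over these 4 leaves 0.1. Gata2 itself did not pass the test in fetal liver (-0.34, limma adjusted p 0.0979) or in bone marrow (0.17, limma adjusted p 0.472).

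The ratio of Gata1 to Zfpm1 ranged from 15.1 to 25.8 in WT and from 69.9 to 89.7 in ETV6-RUNX1 fetal liver, and from 10.3 to 18.6 in WT and from 3.07 to 7.49 in ETV6-RUNX1 bone marrow. The log2 differences were 2.10 and -1.58, with no overlap between genotypes (exact permutation p 0.1 each). In these libraries the gap between factor and cofactor RNA was wider with ETV6-RUNX1 in fetal liver and narrower in bone marrow. With 3 against 3 libraries the permutation p cannot be under 0.1, so this test cannot decide whether the ratio differs. By limma Zfpm1 itself passed in neither source (adjusted p 0.0591 in fetal liver and 0.607 in bone marrow).

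**Figure D3:**
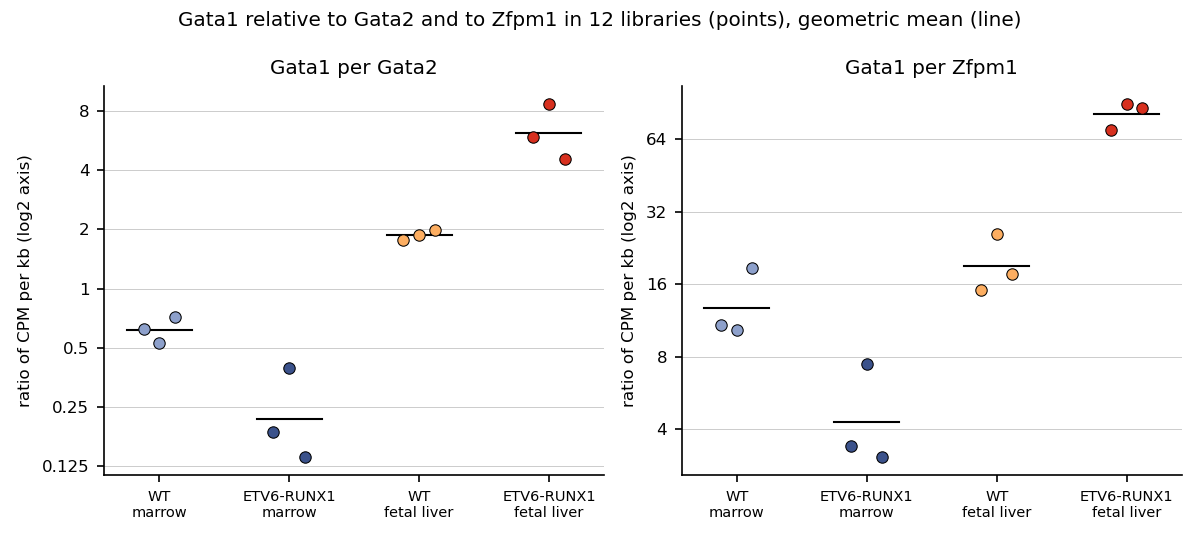
Ratio of Gata1 to Gata2 (left) and of Gata1 to Zfpm1 (right) in CPM per kilobase of exon on a log2 axis, with 1 point per library and lines at the geometric mean of each group. ETV6-RUNX1 libraries lie above WT in fetal liver (4.54 to 8.69 against 1.77 to 1.97 for Gata2) and below WT in bone marrow (0.139 to 0.396 against 0.528 to 0.713).

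Over the 12 libraries, Pearson's r of log2(CPM + 1) was 0.91 for Gata1 with Epor, 0.91 for Gata1 with Rhag and 0.91 for Epor with Rhag, and -0.82 for Klf1 with Gata1. It was -0.01 for Gata1 with Nfe2 and 0.12 for Gata1 with Zfpm1. These values describe 12 points that share 4 groups and each library's depth. Klf1 had 1 to 58 reads per library. It passed the filter on low values only through bone marrow libraries, the source in which Gata1 was lower. Its negative r therefore gives no support to an opposite course of Klf1 and Gata1. Like genes were searched among tested genes other than the 9, with a mean of at least 1 CPM. Unnamed gene models were left out by the form of their symbols, which also left out some named genes such as E2f2. Among the genes searched, those most like Gata1 in this measure were Tstd3 (r = 0.991), the platelet receptor gene Treml1 (0.987) and Hpgd (0.984). Those most like Epor were Dstn (0.984), Rab39 (0.983) and Ica1l (0.968), and those most like Rhag were Cd59b (0.963), Pttg1ip (0.963) and Tec (0.960). Nfe2 was most like Cnp (0.969), P2ry14 (0.950) and Trim26 (0.949), and Klf1 like Prkar2a (0.930), Acd (0.927) and Slc29a1 (0.913). Zfpm1 had the weakest likeness of the 6, with Cd300a (0.880), Hist1h4c (0.858) and Eif4ebp2 (0.849).

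The other genes of erythropoietin receptor signalling rose for the most part in fetal liver. Of 14 tested, 10 rose and 2 fell, with a median log2 fold change of 0.79 beside 0.08 over all genes, of which 24.8% rose and 18.3% fell. Jak2, the kinase bound to EPOR, rose from 24.5 ± 3.44 to 56.2 ± 1.06 CPM (SD, n = 3; log2 fold change 1.18, limma adjusted p 3.4e-05), and the kinase gene Lyn rose from 96.1 ± 12.3 to 221 ± 10.8 CPM (1.2, limma adjusted p 5.41e-05). Tfr2, which encodes transferrin receptor 2, a partner of EPOR, fell from 43.5 ± 2.40 to 14.7 ± 6.41 CPM (-1.58, limma adjusted p 8.02e-05), and Podxl fell by 1.42 (limma adjusted p 0.000275). In bone marrow 4 of the 14 rose and 1 fell, with a median of 0.38, while 14.4% of all genes rose and 4.93% fell. The 4 were Socs2 (1.42), Pim1 (1.16), Socs3 (1.43) and Cish (0.63), all known targets of STAT signalling, and all 4 also rose in fetal liver. The genotype effect differed between sources for Jak2 (0.84, limma adjusted p 0.0258) and Lyn (0.95, limma adjusted p 0.0204), higher in fetal liver, and for Tfr2 (-1.28, limma adjusted p 0.0221), lower in fetal liver.

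Of 18 other erythroid transcription factor genes, 10 rose and 1 fell in fetal liver, and 7 rose and 0 fell in bone marrow, with medians of 0.55 and 0.39. Of all genes tested, 24.8% rose and 18.3% fell in fetal liver, and 14.4% rose and 4.93% fell in bone marrow. Lmo2, which encodes a bridging protein of the GATA1 and TAL1 complex, rose in both (0.64, limma adjusted p 0.00290 in fetal liver, and 0.83, limma adjusted p 0.00204 in bone marrow). So did Zbtb7a (1.09 and 1.05) and Bcl11a (0.81 and 0.84), which encode repressors of fetal globin genes. Gfi1b, which encodes a transcriptional repressor that red cell and platelet precursors need for their development, was the 1 gene that fell in fetal liver (-0.88, limma adjusted p 0.00535). In the interaction test 0 of the 18 passed with limma, edgeR or DESeq2 (2 were lower at an unadjusted limma p under 0.05), and 1 was called lower without ETV6-RUNX1 fetal liver replicate 3.

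Of 20 red cell membrane and skeleton genes, 15 were tested; 9 rose and 3 fell in fetal liver, with a median of 0.85, while 1 rose and 2 fell in bone marrow, with a median of 0.03 that became -0.03 under median-of-ratios scaling and -0.05 under quantile normalization. These counts stand beside 43.1% of all genes called in fetal liver and 19.4% in bone marrow. Sptb, which encodes beta spectrin of the membrane skeleton, had 1.69 to 3.01 CPM in WT and 9.93 to 12.7 CPM in ETV6-RUNX1 fetal liver (limma adjusted p 0.000124). Dmtn (dematin) also rose, from a mean of 0.421 to 4.03 CPM (limma adjusted p 0.000106). Of the 9 genes that rose, 3, Dmtn among them, passed the filter on low values only through the ETV6-RUNX1 fetal liver libraries, so they had to differ. The 3 that fell in fetal liver were Slc14a1 (-1.42, limma adjusted p 0.0107), Aqp1 (-1.02, limma adjusted p 0.0157) and Tmod1 (-0.89, limma adjusted p 0.0183). Tmod1 and Slc14a1 also fell in bone marrow (-1.95, limma adjusted p 0.000511, and -1.34, limma adjusted p 0.0305), where Bcam rose (1.31, limma adjusted p 0.00177). The interaction passed for 6 of the 15 genes, all with the higher effect in fetal liver. Icam4 had no read in any library, and Kel had none in the 3 ETV6-RUNX1 fetal liver libraries against 0.0620 to 0.454 CPM in WT.

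Of 12 heme synthesis genes tested, 2 rose and 4 fell in fetal liver, with a median of -0.28, and 0 rose and 1 fell in bone marrow by limma (1 was higher and 1 lower at an unadjusted p under 0.05, and edgeR and DESeq2 called 0 higher). With 43.1% of all genes called in fetal liver and 19.4% in bone marrow, these counts do not set the list apart. Alas1, the form of the first enzyme found in most tissues, rose from 68.4 ± 2.78 to 103 ± 8.77 CPM in fetal liver (SD, n = 3; log2 fold change 0.58, limma adjusted p 0.00165), next to the near absence of Alas2. Slc25a38, a mitochondrial glycine carrier, rose by 0.81 (limma adjusted p 0.00152), whereas Alad, the next enzyme of the pathway, fell (-0.82, limma adjusted p 0.000406). Urod fell in bone marrow (-0.58, limma adjusted p 0.0257).

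Genes of erythroid maturation went both ways. Of 9 tested, 3 rose and 4 fell in fetal liver (median -0.72), and 0 rose and 3 fell in bone marrow (median -0.44), beside 43.1% and 19.4% of all genes called. Cd36 rose from 0.573 ± 0.214 to 16.1 ± 4.85 CPM and Tent5c from 0.786 ± 0.242 to 16.8 ± 0.374 CPM in fetal liver (SD, n = 3; limma adjusted p 1.09e-06 and 6.6e-08). Hemgn, which encodes hemogen, a nuclear protein of blood progenitors, fell in fetal liver from 79.9 ± 6.40 to 9.90 ± 7.86 CPM (log2 fold change -3.12, limma adjusted p 6.41e-06) and in bone marrow from 104 ± 9.83 to 29.5 ± 5.87 CPM (-1.80, limma adjusted p 0.00282). Hemgn thus fell in the source in which Gata1 rose and in the one in which it fell. Trim58 fell in bone marrow (-1.18, limma adjusted p 0.0134) and in fetal liver (-1.15, limma adjusted p 0.00584). Car1, a carbonic anhydrase of red cell precursors, was near 0 throughout, with at most 0.186 CPM in a WT library and no read in the 6 ETV6-RUNX1 libraries. All 5 tested globin genes rose in fetal liver, 2 of them (Hba-a1 and Hba-a2) tested only because of the ETV6-RUNX1 fetal liver libraries, and 0 of 5 were called in bone marrow by limma (3 were higher at an unadjusted p under 0.05; over all alternatives, edgeR and DESeq2 included, 0 to 2 were called). The embryonic gene Hbb-y had 0.251 ± 0.0686 CPM in WT and 5.99 ± 2.92 CPM in ETV6-RUNX1 fetal liver (limma adjusted p 1.48e-05). Near-identical globin genes share reads, so their split is uncertain.

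**Figure D4:**
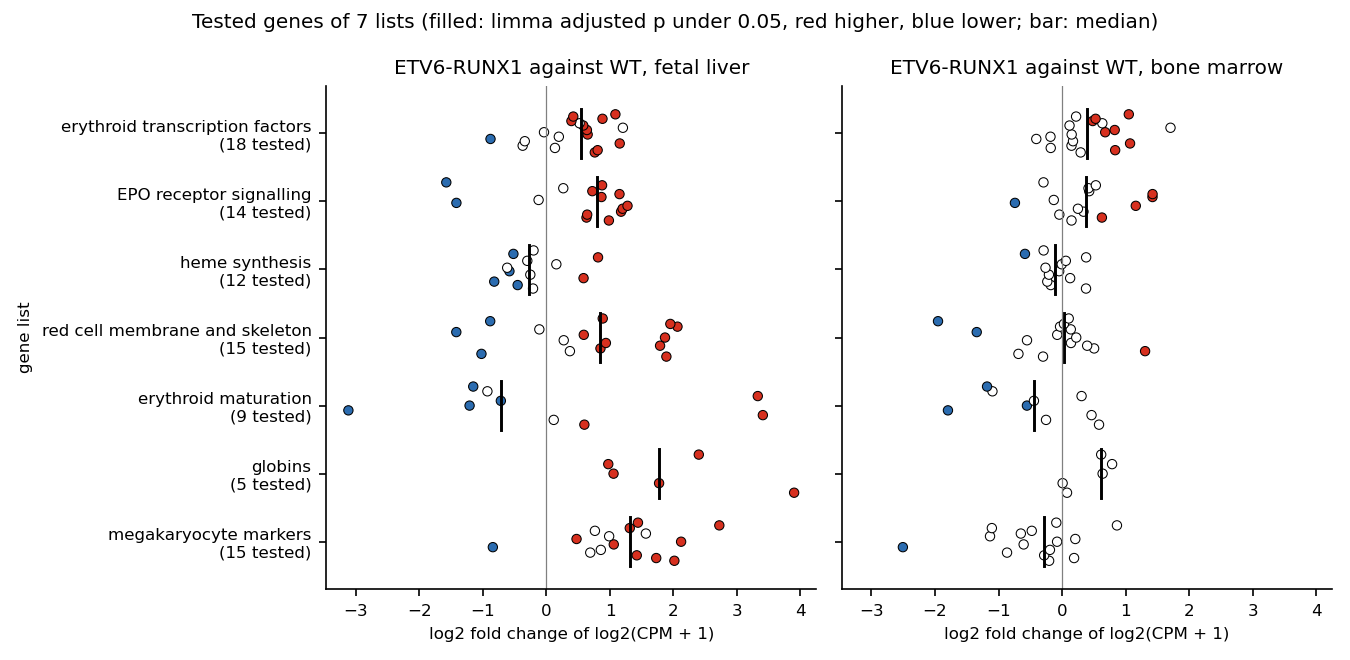
Log2 fold change of log2(CPM + 1), ETV6-RUNX1 against WT (horizontal axes), in fetal liver (left) and bone marrow (right) for the tested genes of 7 lists; each point is a gene, red or blue where it rose or fell with a limma adjusted p under 0.05 and white otherwise, and bars are list medians. The medians of the red cell membrane list (0.85 and 0.03, the latter -0.03 under median-of-ratios scaling) and of the megakaryocyte list (1.31 and -0.28) differ between the panels, and the heme synthesis list sits below 0 in both (-0.28 and -0.11).

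Genes of the megakaryocyte lineage, in which Gata1, Zfpm1 and Nfe2 are also expressed, moved in the same libraries. Of 15 markers, 9 rose and 1 fell in fetal liver (median 1.31), 0 rose and 1 fell in bone marrow (median -0.28), beside 43.1% of all genes called in fetal liver and 19.4% in bone marrow. None of the 15 was at or under the floor throughout a group. Their summed level was 4630 to 6356 CPM in WT and 10426 to 11873 CPM in ETV6-RUNX1 fetal liver, and 2293 to 3052 CPM in WT and 1560 to 3475 CPM in ETV6-RUNX1 bone marrow. Itgb3, an integrin gene of platelets, rose from 229 ± 79.6 to 978 ± 200.2 CPM in fetal liver (SD, n = 3; limma adjusted p 0.00207), and Tubb1, a tubulin gene of platelets, rose from 20.1 ± 4.50 to 142 ± 46.0 CPM (limma adjusted p 1.22e-05). Gp9 was the 1 gene that fell in both sources (-0.84, limma adjusted p 0.00911 in fetal liver, and -2.51, limma adjusted p 2.77e-05 in bone marrow). ETV6-RUNX1 bone marrow replicate 2 had the highest summed level of its group (3475 CPM) and also the highest Gata1, and without this library 5 of the 15 markers fell in bone marrow. The part of megakaryocyte RNA in the differences of Gata1 and Nfe2 was not tested.

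Markers of other cell types were measured in the same way. Their counts stand beside 24.8% of all genes that rose and 18.3% that fell in fetal liver, and 14.4% and 4.93% in bone marrow. These lists hold few tested genes, and their counts were not tested against these shares. Of 15 mast cell, basophil and eosinophil markers, 4 were tested, with summed levels of 8.43 to 13.7 CPM in WT and 9.01 to 14.6 CPM in ETV6-RUNX1 fetal liver, and 29.3 to 46.7 and 9.65 to 17.1 CPM in bone marrow; 1 rose (Hdc) and 2 fell in fetal liver, and 2 fell in bone marrow. Of 10 macrophage markers 4 were tested, of which 2 rose in fetal liver and 1 fell in bone marrow; 1 of the rises, Adgre1, would not have been tested without its ETV6-RUNX1 fetal liver libraries, where it was high. This list summed to at most 13.0 CPM in any library. Lymphoid markers, of which 1 of 12 was tested and not called, summed to at most 82.6 CPM. Granulocyte and monocyte markers summed to 444 to 558 CPM in WT and 668 to 868 CPM in ETV6-RUNX1 fetal liver, with 2 rises (Csf1r, Lyz2) and 2 falls (Prtn3, Mpo) among 7 tested genes. In bone marrow they summed to 383 to 666 CPM in WT and 346 to 519 CPM in ETV6-RUNX1, and 0 rose and 2 fell (Prtn3, Ltf). Lyz2 rose from 232.7 to 686 CPM in fetal liver. The genotype effect was higher in fetal liver than in bone marrow for Csf1r (2.26, limma adjusted p 0.00219) and Lyz2 (1.34, limma adjusted p 0.00551), as for Gata1, Epor and Rhag. It was lower in fetal liver for Prtn3 (-1.85, limma adjusted p 0.000304), so this list went both ways. The part of these cells in the results was not tested.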

How the data were processed

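The authors deposited CPM values (reads per gene, scaled to a common library total), with 1 column for each of the 12 libraries. Per the labels' protocols, RNA came from a Norgen kit for single cells, and stranded total RNA libraries (SMARTer Pico) were sequenced from both ends on a NovaSeq instrument. Per the submitters' processing notes, bcl2fastq, STAR 2.5.1a, Subread, featureCounts 1.4.6-p5, Salmon 0.8.2, edgeR and limma and the build GRCm38 were used; their roles, and the use of strand, are not given in the sources used here. In every library 100% of the deposited CPM values were whole multiples of the value of 1 read (within 0.01 read), so whole reads were recovered. Of 40757 entries, 276 repeated a gene ID with identical values and were kept once. GENCODE M21 gave positions and exon lengths, and 99.4% of gene IDs were found in it.

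CPM were analysed as log2(CPM + 1) in limma 3.58.1 (R 4.3.3; lmFit, eBayes with trend; two-sided), with 4 group coefficients and 8 residual degrees of freedom. Pseudocount 0.1, other gene filters, median-of-ratios and quantile scaling, edgeR 4.0.16 (quasi-likelihood, TMM), DESeq2 1.42.0, a replicate block, fits of only the libraries compared and leaving out each library were the alternatives. The scripts were tested on simulated data. The genes described and the gene lists, written from general knowledge, were chosen with earlier results of these data known. Apart from the 9 genes, the text names up to 4 called genes per list and source by smallest p, genes at 0, and the 3 genes most correlated with each tested gene; Gata2, Gfi1b, Runx1, Etv6, Xist and further list genes were added after their values were seen. Ahsp was not found by symbol and is not analysed here. Some genes of the lists are counted but not reported here by name.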

Additional observations from a re-analysis of the deposited data

Results flagged for a closer look

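The effect of ETV6-RUNX1 differed between fetal liver and bone marrow for 3 of the 6 genes tested. This was a test of the difference itself (limma interaction, fetal liver effect minus bone marrow effect on the log2 scale). Over all genes 9.19% passed it, 5.56% with a higher and 3.62% with a lower effect in fetal liver. The difference was 2.62 for Gata1 (adjusted p 0.00232), with all 3 ETV6-RUNX1 libraries above WT in fetal liver and all 3 below WT in bone marrow. It was 3.50 for Rhag (adjusted p 5.29e-05), with the same placing of the libraries. It was 1.29 for Epor (adjusted p 0.00316), with all 3 ETV6-RUNX1 libraries above WT in fetal liver and overlap in bone marrow. All 3 differences passed in each of 20 alternatives, with adjusted p up to 0.0230 for Gata1, 0.00189 for Rhag and 0.0117 for Epor.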

How the results depend on the processing

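Over 619 values of the 6 tested genes under the alternatives, 581 kept their direction and their side of the threshold, 18 lost and 14 gained a call, 6 changed sign without a call, and 0 reversed a call. The fetal liver rises of Gata1, Epor, Rhag and Nfe2 held in 21 of 21 alternatives. In bone marrow the 2 calls among these genes became 0 with all genes with reads, 1 with only the libraries compared, and 1 to 2 when a library was left out. The 2 calls between sources in WT became 1 with all genes with reads and 1 to 3 when a library was left out. Over all genes, the 2763 calls in bone marrow became 1601 with only the libraries compared and 1520 to 2924 with a library left out; the 1311 calls of the interaction became 767 with all genes with reads and 731 to 2332; the 1591 calls between sources in WT became 868 to 2781. The causes were not tested. The highest of these, 2332 and 2781, came without WT bone marrow replicate 1, and 1520 without ETV6-RUNX1 bone marrow replicate 2. On recovered reads, edgeR called 6178 genes in fetal liver, 2739 in bone marrow and 1105 in the interaction. The labels do not say whether replicate numbers pair the libraries. Of 18 same-numbered pairs, 7 had a correlation of deviations from the group mean over 0.1 (range -0.44 to 0.39, median -0.04). Some differently numbered pairs had larger values, such as 0.66 for WT bone marrow replicate 1 with WT fetal liver replicate 3. Correlations in groups of 3 cannot show whether libraries share an animal or a batch, and this was not tested. With the replicate block, 4, 2 and 3 of the 6 genes were called in fetal liver, bone marrow and the interaction, as without it, and the source difference of Klf1 in ETV6-RUNX1 lost its call (-0.72, limma adjusted p 0.0531). Depth limits Klf1, Slc4a1, Ermap and Alas2, and list counts also moved: membrane genes called higher in fetal liver ranged from 5 to 9, and megakaryocyte markers from 5 to 13.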
